A study of Homo sapiens with 8 samples.

Results

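The 10 genes BTK, SYK, LYN, BLK, LCK, FYN, BLNK, PLCG2, INPP5D and BANK1 encode kinases, adaptors and lipid enzymes that work directly beneath the B-cell receptor. They were chosen by name, with earlier results of these data known. Every probe set that the platform annotation gives to a single one of them was taken, 28 of 54675 in all. Expression had been measured on 8 Affymetrix arrays from 2 human leukaemia lines, SUP-B8 and NALM-6, which the submitters class as acute lymphoblastic. Treatment lasted 72 hours and was either DMSO, the vehicle, or 0.5 uM of GSK126. Each of the 4 groups of line and treatment holds 2 arrays labelled as biological replicates. GSK126 inhibits EZH2, the enzyme that places the silencing mark on lysine 27 of histone H3. The EZH2 genotype of the lines is not stated in the labels. Both lines are permanent cultures, so each label stands for 1 line and not for a range of patients.

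The B-cell receptor is a membrane immunoglobulin joined to CD79A and CD79B. When it is engaged, Src-family kinases phosphorylate the tails of these chains, SYK docks there and is activated, and the adaptor BLNK brings BTK and PLCG2 together. PLCG2 then cleaves a membrane lipid into messengers that release calcium and recruit protein kinase C, whereas the phosphatase INPP5D (SHIP1) removes the lipid that holds BTK at the membrane. Precursor B cells use the same enzymes beneath the pre-B-cell receptor, in which a surrogate light chain replaces the light chain.

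The labels of the lines were set against marker genes. CD79A, CD79B, PAX5 and EBF1, markers of the B lineage, lay above the array medians in all 4 groups. Of 8 markers of precursor B cells, 8 were above the medians of all probe sets in the arrays labelled SUP-B8 and 2 in those labelled NALM-6. Of 7 markers of mature B cells the numbers were 3 and 6. The usual account of NALM-6 is of a precursor line with terminal transferase, yet DNTT, which encodes that enzyme, averaged 6.86 ± 0.04 (SD, n = 2) in the DMSO arrays labelled NALM-6, below the medians. It averaged 13.67 ± 0.13 (SD, n = 2) in those labelled SUP-B8. The lines are therefore called by their labels only, and every direction between them is that of the labels. Of 8 T-cell markers, 4 lay above the medians in every group (CD3D, CD3E, CD247 and CD4), with means of 7.47 to 8.27, close to the medians of 7.18 to 7.24. Of these 4, 0 were called by limma in each of the 4 comparisons, and 0 had an unadjusted p under 0.05. Of 6 myeloid markers, CSF3R alone lay above the medians. Some mature B-cell markers moved with treatment. Of 6 tested, 4 fell and 0 rose under the label NALM-6 (median -0.38), against 18.5% lower and 20.8% higher of all genes tested. They were MS4A1 (-0.95 ± 0.06), CR2 (-0.52 ± 0.05), BCL6 (-0.46 ± 0.05) and CD40 (-0.28 ± 0.06). Of the 8 precursor markers, 2 fell and 0 rose there, but 1 of these 2 lay below the array medians with both treatments. The other, MME (-0.22 ± 0.06), lost its call with the mean of its probe sets (-0.09, adjusted p = 0.159). Under the label SUP-B8 2 of the 6 mature markers rose, against 1.91% of all genes, MS4A1 by 1.07 ± 0.06 and BCL6 by 0.34 ± 0.05. The BCL6 call was lost without any 1 array of that label. It was also lost with the mean of its probe sets (0.23, adjusted p = 0.0592). The part of cell types or stages in the results below was not tested.

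Promoter windows, the 250 bases before a transcript start, were taken from RefSeq (GRCh38.p14) and were found for 8 of the 10 genes, 16 windows in all. LYN and BLK had no entry. Windows are shown for LCK, the gene with the largest called response to the inhibitor, at both of its starts; for BANK1, the gene with the largest difference between the lines; for INPP5D, which differed between the lines but was not called after treatment; and for BTK, which did not pass the test between the lines. Capitals mark GAGGAA or its reverse complement, a sequence that PU.1 and related ETS factors of B cells can bind. Other sequences bound by ETS factors were not searched for or marked, so a window without capitals is not shown to lack them. These windows lie on the plus strand at chr1:32251015-32251264, chr1:32273871-32274120, chr4:101790480-101790729 and chr2:233060092-233060341, and for BTK on the minus strand at chrX:101390797-101391046.
LCK, upstream start: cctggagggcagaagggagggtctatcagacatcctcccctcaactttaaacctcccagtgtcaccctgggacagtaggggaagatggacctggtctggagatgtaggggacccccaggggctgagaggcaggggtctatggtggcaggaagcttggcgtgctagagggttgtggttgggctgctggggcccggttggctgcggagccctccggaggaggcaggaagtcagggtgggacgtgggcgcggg
LCK, downstream start: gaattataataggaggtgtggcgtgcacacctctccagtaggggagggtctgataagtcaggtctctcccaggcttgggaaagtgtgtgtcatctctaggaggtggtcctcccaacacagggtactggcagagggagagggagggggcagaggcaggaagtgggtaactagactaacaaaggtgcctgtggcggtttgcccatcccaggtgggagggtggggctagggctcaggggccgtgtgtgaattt
BANK1, upstream start: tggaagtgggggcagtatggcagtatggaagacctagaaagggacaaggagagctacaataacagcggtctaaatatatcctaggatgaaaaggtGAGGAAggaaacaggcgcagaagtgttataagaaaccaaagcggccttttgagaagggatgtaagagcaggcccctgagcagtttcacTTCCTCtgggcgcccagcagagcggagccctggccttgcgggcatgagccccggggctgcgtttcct
INPP5D: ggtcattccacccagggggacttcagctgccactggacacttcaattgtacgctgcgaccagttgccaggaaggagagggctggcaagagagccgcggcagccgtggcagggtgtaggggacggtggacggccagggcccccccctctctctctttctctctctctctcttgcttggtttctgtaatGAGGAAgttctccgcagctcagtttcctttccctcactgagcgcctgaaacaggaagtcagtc
BTK, upstream start: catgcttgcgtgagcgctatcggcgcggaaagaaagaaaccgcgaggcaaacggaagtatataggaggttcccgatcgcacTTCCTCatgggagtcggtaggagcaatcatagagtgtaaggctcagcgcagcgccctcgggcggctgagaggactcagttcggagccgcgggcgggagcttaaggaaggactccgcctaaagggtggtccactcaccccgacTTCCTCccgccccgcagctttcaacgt
The motif was present in 23.6% of all 35116 such windows in the table, searched on both strands with GAGGAA alone. The numbers of matches were 2 in the BTK window shown, 2 in the BANK1 window shown, 1 in the INPP5D window and 0 in either LCK window. The downstream starts of BTK and BANK1, whose windows are not shown, had 0 matches each. The LCK windows held 7 and 3 CG dinucleotides, against a median of 11 over all windows. The BTK windows held 24 at the upstream start and 2 at the downstream start. The most CG-rich window among the 16 was that of FYN at its second start, with 45, more than or equal to 99.6% of all windows. These are descriptions of the sequence, and no measurement of histone marks or binding was used here.

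Levels below are log2 expression on the arrays, for the probe set with the highest mean over the 8 arrays of each gene. Calls were made by limma's moderated test where the p, adjusted by Benjamini-Hochberg over the 13161 genes tested, was under 0.05, and differences are given ± SE. All 10 genes passed the filter on dim probe sets, but BANK1 did so through the arrays labelled NALM-6 alone. A bulk array cannot tell fewer expressing cells from less RNA per cell. An exact two-sided permutation test of a single gene cannot go below p = 0.333 in groups of 2, so the calls rest on the model.

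Under DMSO, 7 of the 10 genes were lower and 1 was higher in the arrays labelled SUP-B8, where 68.3% of all genes tested were called (37.8% higher and 30.6% lower). BANK1, which passed the filter through the arrays labelled NALM-6 alone, had to differ between the lines; without such genes the count was 6 lower and 1 higher of 9, against 66.2% of 12052 genes (36.9% higher and 29.3% lower). The median difference over the 10 was -1.39, and over all genes 0.04. The arrays of the lines did not overlap for 9 of the 10, against 81.1% of all genes. After GSK126, 7 of 10 were called in the arrays labelled NALM-6, 4 higher and 3 lower, against 39.3% of all genes (20.8% higher and 18.5% lower). For the arrays labelled SUP-B8, 2 of 10 were called, both higher, against 2.25% of all genes (1.91% higher and 0.334% lower). Of these 2, BANK1 lay below the array medians with both treatments, and FYN lost its call in every omission of an array. The treatments did not overlap for 9 of 10 genes under the label NALM-6 and 8 of 10 under the label SUP-B8, against 68.8% and 49.5% of all genes. The shares of members rest on few genes, and several of the small responses lost their calls when single arrays were left out, as given gene by gene below.

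**Figure D1:**
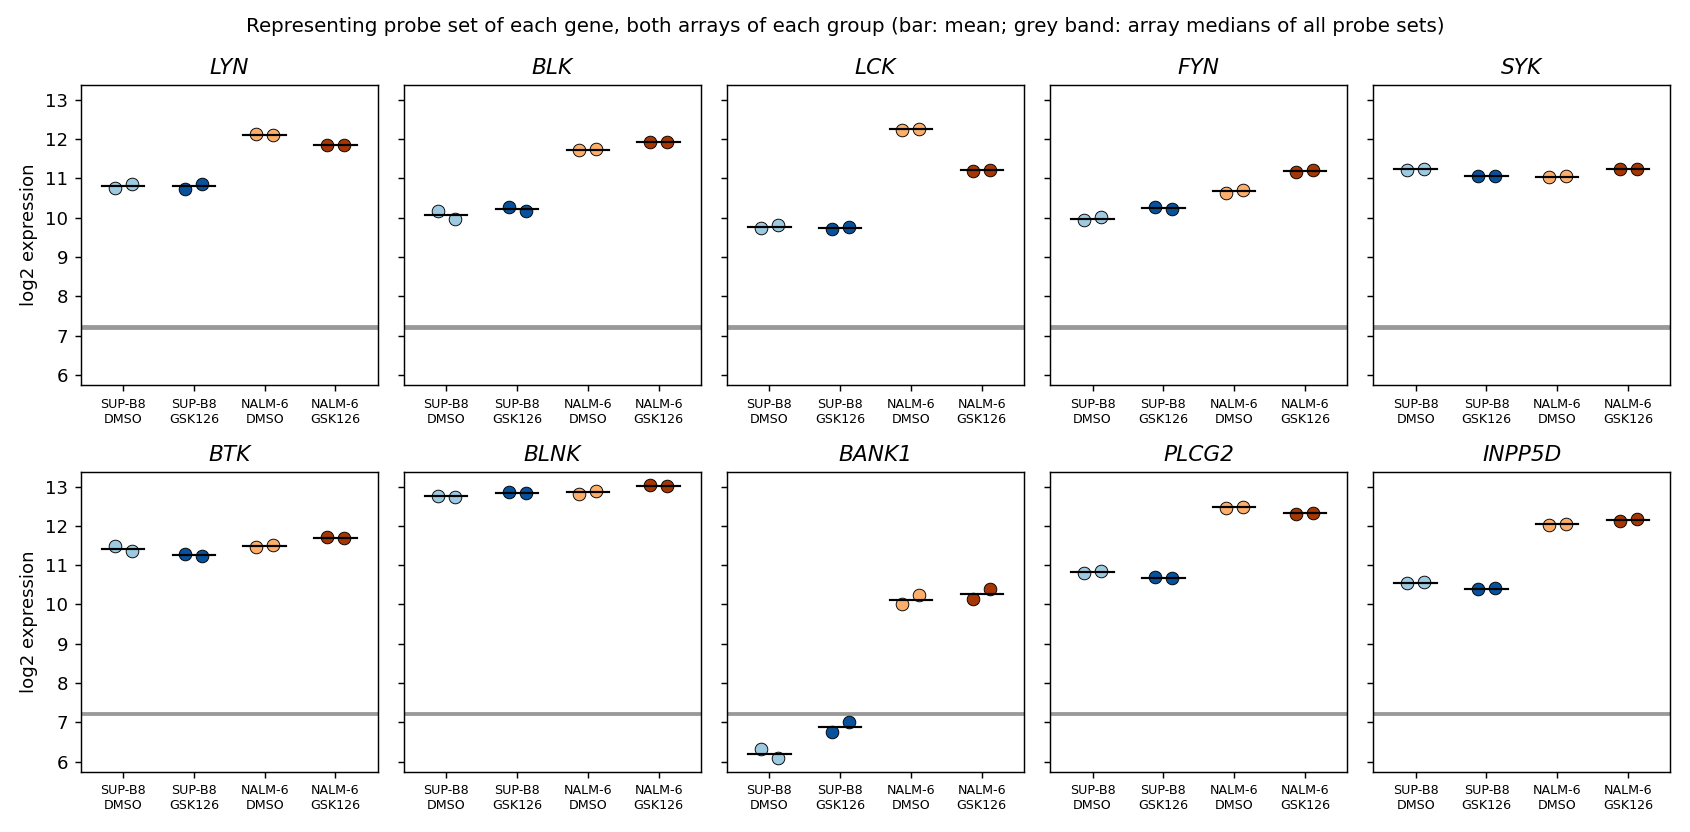
Log2 expression of the 10 genes on both arrays of each of the 4 groups, for the representing probe set of each; points are arrays, short bars are group means and the grey band spans the array medians of all probe sets. LCK shows the widest step with GSK126, from 12.24 to 11.21 in the arrays labelled NALM-6, and BANK1 lies below the band in the arrays labelled SUP-B8.

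LCK encodes a Src-family kinase best known beneath the T-cell receptor and also present in some B-cell leukaemias and lymphomas. In the arrays labelled NALM-6 its level was 12.23 and 12.26 with DMSO and 11.20 and 11.21 with GSK126. In those labelled SUP-B8 it was 9.74 and 9.81 with DMSO and 9.72 and 9.76 with GSK126. The treatments were thus clearly apart under the first label and overlapped under the second. LCK fell by 1.04 on the log2 scale (SE 0.05, 2.05-fold, adjusted p = 3.78e-06) in the arrays labelled NALM-6, a size at or above that of 98.1% of genes tested there. The difference in the arrays labelled SUP-B8 was -0.04 ± 0.05 (adjusted p = 0.753). The responses differed from each other by 1.0 ± 0.07 (SUP-B8 minus NALM-6, adjusted p = 6.86e-05). LCK was also the member with the largest difference between the lines that was measured on both sides, at -2.47 ± 0.05 under DMSO (SUP-B8 minus NALM-6, 5.54-fold, adjusted p = 1.71e-09), and the gap of the means was -1.47 under GSK126. Its other probe set, 204890_s_at, gave -1.13 ± 0.06 for the response under the label NALM-6 and -2.47 ± 0.06 between the lines. Omission of any 1 array left the response between -1.05 and -1.02, always called.

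The genes whose levels over the 8 arrays were most like those of LCK were PDCD4, UVRAG and QTMAN, with Pearson r of 0.9991, 0.999 and 0.9988. The 8 points are 4 groups in 2 clusters, the labelled lines, so these coefficients are a description of the same steps and carry no test. In the order given, the 3 genes differed by -1.46, -1.01 and -0.94 with GSK126 under the label NALM-6 and by 0.03, 0.04 and 0.02 under the label SUP-B8.

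FYN, a Src-family kinase of many tissues that can phosphorylate receptor tails, moved the other way. Its level was 10.64 and 10.70 with DMSO and 11.17 and 11.21 with GSK126 in the arrays labelled NALM-6. Under the other label it was 9.93 and 10.01 with DMSO and 10.27 and 10.22 with GSK126, so that all GSK126 arrays lay above the DMSO arrays of their label. FYN rose by 0.52 ± 0.05 (1.43-fold, adjusted p = 0.000154) in the arrays labelled NALM-6, and by 0.27 ± 0.05 (1.21-fold, adjusted p = 0.0474) in those labelled SUP-B8. The second call was lost in each of the 8 omissions of an array (adjusted p of 0.0625 to 0.272) and with the mean of its probe sets, where the value was 0.17 (adjusted p = 0.111). The first was kept in all 8, at 0.49 to 0.55. The responses differed by -0.25 ± 0.08 (adjusted p = 0.0448), a call lost in every omission except that of DMSO replicate 1 labelled SUP-B8 (adjusted p of 0.0405 to 0.145). Under DMSO FYN was lower in the arrays labelled SUP-B8, by -0.69 ± 0.05 (adjusted p = 4.49e-06), or -0.39 as the mean of its 5 probe sets.

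All 5 FYN probe sets had positive differences with GSK126 under the label NALM-6, and 4 of them were called when every probe set was tested on its own. They were 210105_s_at (0.52), 212486_s_at (0.70 ± 0.06), 216033_s_at (0.46 ± 0.05) and 243006_at (0.42 ± 0.08), and 1559101_at (0.29 ± 0.10) had adjusted p = 0.0525. Probe sets 212486_s_at and 243006_at lay below the array medians in all arrays labelled SUP-B8. Probe sets 210105_s_at and 216033_s_at lay above the medians on all 8 arrays.

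LYN, the Src-family kinase most prominent in B cells, with activating and inhibitory roles, was 12.12 and 12.11 with DMSO and 11.86 on both GSK126 arrays labelled NALM-6. In the arrays labelled SUP-B8 it was 10.76 and 10.86 with DMSO and 10.74 and 10.86 with GSK126. The former groups did not overlap, and the latter nearly coincided. LYN fell by 0.25 (SE 0.06, 1.19-fold, adjusted p = 0.00919) under the label NALM-6, and its 3 probe sets fell by similar amounts, between -0.26 and -0.24, each called. The call was kept in all 8 omissions of an array, with adjusted p up to 0.048. The difference under the label SUP-B8 was -0.01 ± 0.06 (adjusted p = 0.946), and the difference of the responses, 0.24 ± 0.08, was not called (adjusted p = 0.0643). That difference was called with the mean of its probe sets (0.27, adjusted p = 0.0145), with centred arrays (0.29, adjusted p = 0.0484) and with the trended robust prior (adjusted p = 0.0086). Between the lines LYN differed by -1.30 ± 0.06 (2.47-fold, adjusted p = 1.54e-07), and by -1.76 ± 0.05 and -1.44 ± 0.06 at its other probe sets.

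BLK, a Src-family kinase largely restricted to B-lineage cells, was 11.71 and 11.75 with DMSO and 11.92 and 11.93 with GSK126 in the arrays labelled NALM-6. In those labelled SUP-B8 it was 10.16 and 9.97 with DMSO and 10.27 and 10.18 with GSK126. Neither response was called, although the arrays did not overlap: 0.20 ± 0.07 (adjusted p = 0.0568) under the label NALM-6 and 0.16 ± 0.07 (adjusted p = 0.299) under the label SUP-B8. The former was called with renewed quantile normalization (0.25, adjusted p = 0.0326), the trended robust prior (adjusted p = 0.00601), only the arrays compared (adjusted p = 0.0279) and the replicate block (adjusted p = 0.0384), and without either DMSO array labelled SUP-B8. It was 0.07 with the mean of both probe sets (adjusted p = 0.288). The lines differed by -1.67 ± 0.07 (3.17-fold, adjusted p = 1.13e-07). The second BLK probe set, 210934_at, lay below the medians on all 8 arrays (6.32 to 6.56) and was not tested, and the mean of both probe sets gave -0.91 between the lines. All 4 Src-family members were thus lower in the arrays labelled SUP-B8 under DMSO.

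**Figure D2:**
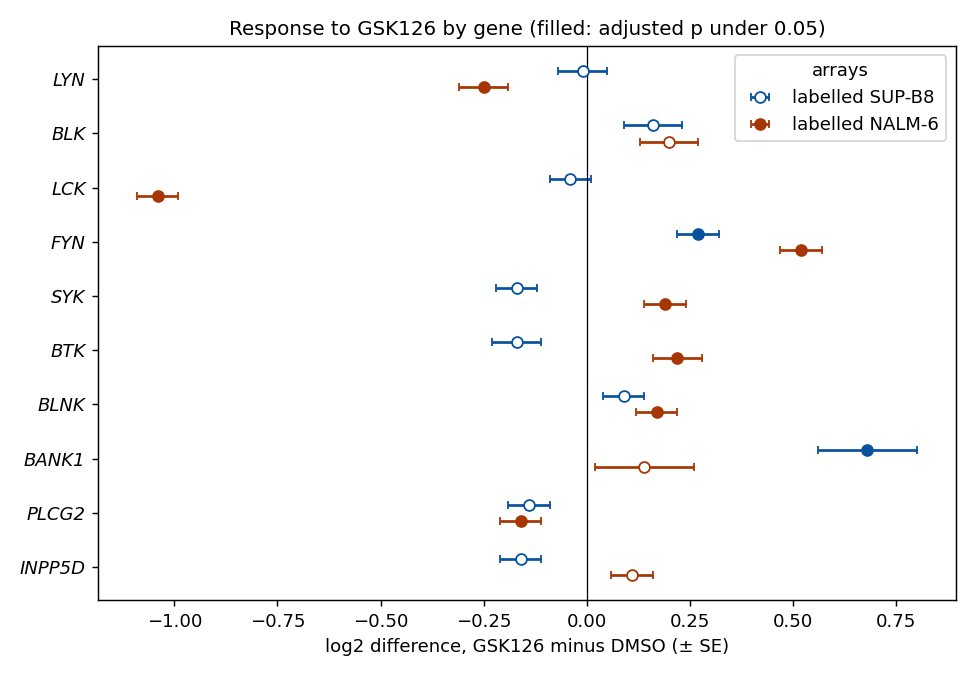
Log2 difference between GSK126 and DMSO (± SE, 2 arrays against 2) for each gene in the arrays of either label; filled points had an adjusted p under 0.05. LCK lies at -1.04 and FYN at 0.52 in the arrays labelled NALM-6, while SYK, BTK and INPP5D have opposite signs in the lines. Both BANK1 levels in the arrays labelled SUP-B8 lie below the array medians, so the plotted size is not a measured one.

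SYK, the kinase that docks on the phosphorylated receptor tails, was 11.03 and 11.06 with DMSO and 11.24 on both GSK126 arrays labelled NALM-6. In the arrays labelled SUP-B8 it was 11.21 and 11.25 with DMSO and 11.07 and 11.06 with GSK126. The groups did not overlap under either label, and the steps ran in opposite directions. The rise under the label NALM-6 was 0.19 ± 0.05 (adjusted p = 0.0113), and the difference under the label SUP-B8 was -0.17 ± 0.05 (adjusted p = 0.129). The responses differed by -0.36 ± 0.06 (adjusted p = 0.0055), called in all 8 omissions. The rise was lost without GSK126 replicate 1 or 2 labelled NALM-6 (adjusted p up to 0.0631) and with arrays centred on their medians (0.16, adjusted p = 0.0604).

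The SYK probe sets did not give a single picture. Probe set 244023_at was 10.11 and 10.32 with DMSO, and 9.36 and 9.45 with GSK126, in the arrays labelled NALM-6. It was 8.19, 8.05, 8.08 and 7.98 in those labelled SUP-B8, in the same order. Here the value fell by 0.81 (SE 0.08, adjusted p = 0.000157) under the label NALM-6 and differed by -2.10 ± 0.08 (adjusted p = 7.38e-08) between the lines. Probe set 226068_at, which represents the gene, differed by 0.19 ± 0.05 (adjusted p = 0.00621) between the lines and 207540_s_at by -0.32 ± 0.06 (adjusted p = 0.00133). With the mean of the 4 probe sets the SYK response under the label NALM-6 turned to -0.14 (adjusted p = 0.0463), the difference between the lines to -0.52 (adjusted p = 9.23e-06), and the difference of the responses to 0.00 (adjusted p = 0.974). The direction of SYK thus depends on the probe set.

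BTK, the Tec-family kinase that activates PLCG2 and is the target of ibrutinib, has a single probe set. It was 11.46 and 11.50 with DMSO and 11.72 and 11.68 with GSK126 in the arrays labelled NALM-6, and 11.48 and 11.36 against 11.28 and 11.22 in those labelled SUP-B8. The GSK126 arrays were the higher ones under the first label and the lower ones under the second. BTK rose by 0.22 ± 0.06 (1.17-fold, adjusted p = 0.0162) under the label NALM-6 and differed by -0.17 ± 0.06 (adjusted p = 0.215) under the label SUP-B8. The responses differed by -0.39 ± 0.08 (adjusted p = 0.0105), called in all 8 omissions with adjusted p up to 0.0442. The rise lost its call without DMSO replicate 1 or either GSK126 array labelled NALM-6 (adjusted p up to 0.0916). Under DMSO the lines were close, at -0.06 ± 0.06 (adjusted p = 0.375), whereas the gap of the means under GSK126 was -0.45.

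BLNK, the adaptor that holds BTK and PLCG2 to the activated receptor, was 12.82 and 12.89 with DMSO and 13.03 and 13.01 with GSK126 in the arrays labelled NALM-6. In those labelled SUP-B8 it was 12.76 and 12.74, then 12.85 and 12.83. The GSK126 arrays were higher under both labels by small steps. BLNK rose by 0.17 ± 0.05 (1.12-fold, adjusted p = 0.0239) under the label NALM-6, a call lost with arrays centred on their medians (0.14, adjusted p = 0.113) and without DMSO replicate 1 or either GSK126 array of that label (adjusted p up to 0.119). Under the label SUP-B8 the difference was 0.09 ± 0.05 (adjusted p = 0.366), and between the lines it was -0.11 ± 0.05 (adjusted p = 0.0745).

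BANK1, an adaptor of B cells that binds LYN and calcium channels of the endoplasmic reticulum, was 10.01 and 10.23 with DMSO and 10.15 and 10.39 with GSK126 in the arrays labelled NALM-6. In those labelled SUP-B8 it was 6.31 and 6.09 with DMSO and 6.76 and 7.0 with GSK126, all below the array medians. A level below the medians is taken here as not shown to be above background, so the difference between the lines is given as at least 2.92 on the log2 scale, or at least 7.57-fold lower in the arrays labelled SUP-B8. No p is given for it, since the gene passed the filter only through the arrays in which it is high. The other 2 probe sets gave at least 3.19 and 1.51. BANK1 was called higher with GSK126 under the label SUP-B8 (adjusted p = 0.0374), with both levels below the medians, so no size is given. That call was lost in 6 of 8 omissions, namely of any array labelled SUP-B8 or of a DMSO array labelled NALM-6 (adjusted p up to 0.191). Under the label NALM-6 the difference was 0.14 ± 0.12 (adjusted p = 0.407), with overlapping arrays. The fitted difference of the responses was 0.53 ± 0.17 and not called (adjusted p = 0.0584), and it rests on levels below the medians. It was called with the mean of the probe sets (adjusted p = 0.00367), centred arrays (adjusted p = 0.0252), the trended robust prior (adjusted p = 0.0142) and the replicate block (adjusted p = 0.0393).

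PLCG2, the phospholipase that produces the calcium-releasing messenger, was 12.45 and 12.49 with DMSO and 12.30 and 12.33 with GSK126 in the arrays labelled NALM-6. The arrays labelled SUP-B8 gave 10.79 and 10.86, then 10.70 and 10.66. The GSK126 arrays were lower under both labels. The difference was -0.16 ± 0.05 (adjusted p = 0.0352) under the label NALM-6 and -0.14 ± 0.05 (adjusted p = 0.229) under the label SUP-B8. The former call was lost in 6 of 8 omissions, without either GSK126 array labelled SUP-B8 or any array labelled NALM-6 (adjusted p up to 0.168). Probe set 230917_at rose under the label NALM-6 instead, from 9.58 on both DMSO arrays to 10.04 and 9.94 (0.41 ± 0.07, adjusted p = 0.00156), and the mean of the 4 probe sets gave 0.03 (adjusted p = 0.689). Between the lines PLCG2 differed by -1.65 ± 0.05 (3.14-fold, adjusted p = 1.62e-08) and its other tested probe sets were lower in the same arrays, 230917_at by -0.83 ± 0.07 and 1563263_at by at least 0.98.

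INPP5D, the lipid phosphatase that restrains the pathway, was 12.02 and 12.05 with DMSO and 12.12 and 12.17 with GSK126 in the arrays labelled NALM-6. The arrays labelled SUP-B8 gave 10.54 and 10.57, then 10.39 and 10.41. Both steps were free of overlap and opposite in sign, and neither was called: 0.11 ± 0.05 (adjusted p = 0.0971) and -0.16 ± 0.05 (adjusted p = 0.156). Their difference, -0.27 ± 0.07, was called (adjusted p = 0.0205), but not without any 1 of the 4 GSK126 arrays (adjusted p up to 0.0833) nor with the mean of its probe sets (-0.19, adjusted p = 0.0975). Between the lines INPP5D differed by -1.48 ± 0.05 (2.79-fold, adjusted p = 1.93e-08), and its other probe sets gave -1.55 ± 0.05 and at least 1.32 in the same direction.

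The difference of the responses, SUP-B8 minus NALM-6, was called for 5 of the 10 genes, 1 positive (LCK) and 4 negative (BTK, SYK, FYN and INPP5D), against 25.4% of all genes (10.9% positive and 14.5% negative). With arrays centred on their medians 3 were positive and 2 negative. Under the label NALM-6 the split of 4 higher and 3 lower became 2 and 3 with that centring, and 6 and 3 with renewed quantile normalization. The responses of the lines have no arrays in common. LCK alone reached a 2-fold change with GSK126 among the 10 genes in the fit by gene.

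Tested probe set by probe set, 26 of the 28 passed the filter. Between the lines 22 of 26 were called, 21 of them lower in the arrays labelled SUP-B8, against 70.1% of all probe sets tested (37.3% higher and 32.8% lower). Among the lower, some passed the filter through the arrays labelled NALM-6 alone. They were every BANK1 probe set, FYN 212486_s_at and 243006_at, PLCG2 1563263_at and INPP5D 1568943_at. This favours a difference between the lines, and neither the count nor the share was corrected for it. With GSK126, 15 of 26 were called under the label NALM-6, 8 higher and 7 lower, against 41.1% (19.4% and 21.7%). Under the label SUP-B8, 2 of 26 were called, both of BANK1, higher and below the medians, against 1.55% (1.35% higher and 0.201% lower). Probe sets of a gene share its transcript and are not independent. Under the label NALM-6, LCK, LYN and FYN each had several called probe sets, all of the same sign within the gene. The called probe sets of SYK and of PLCG2 had opposite signs.

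**Figure D3:**
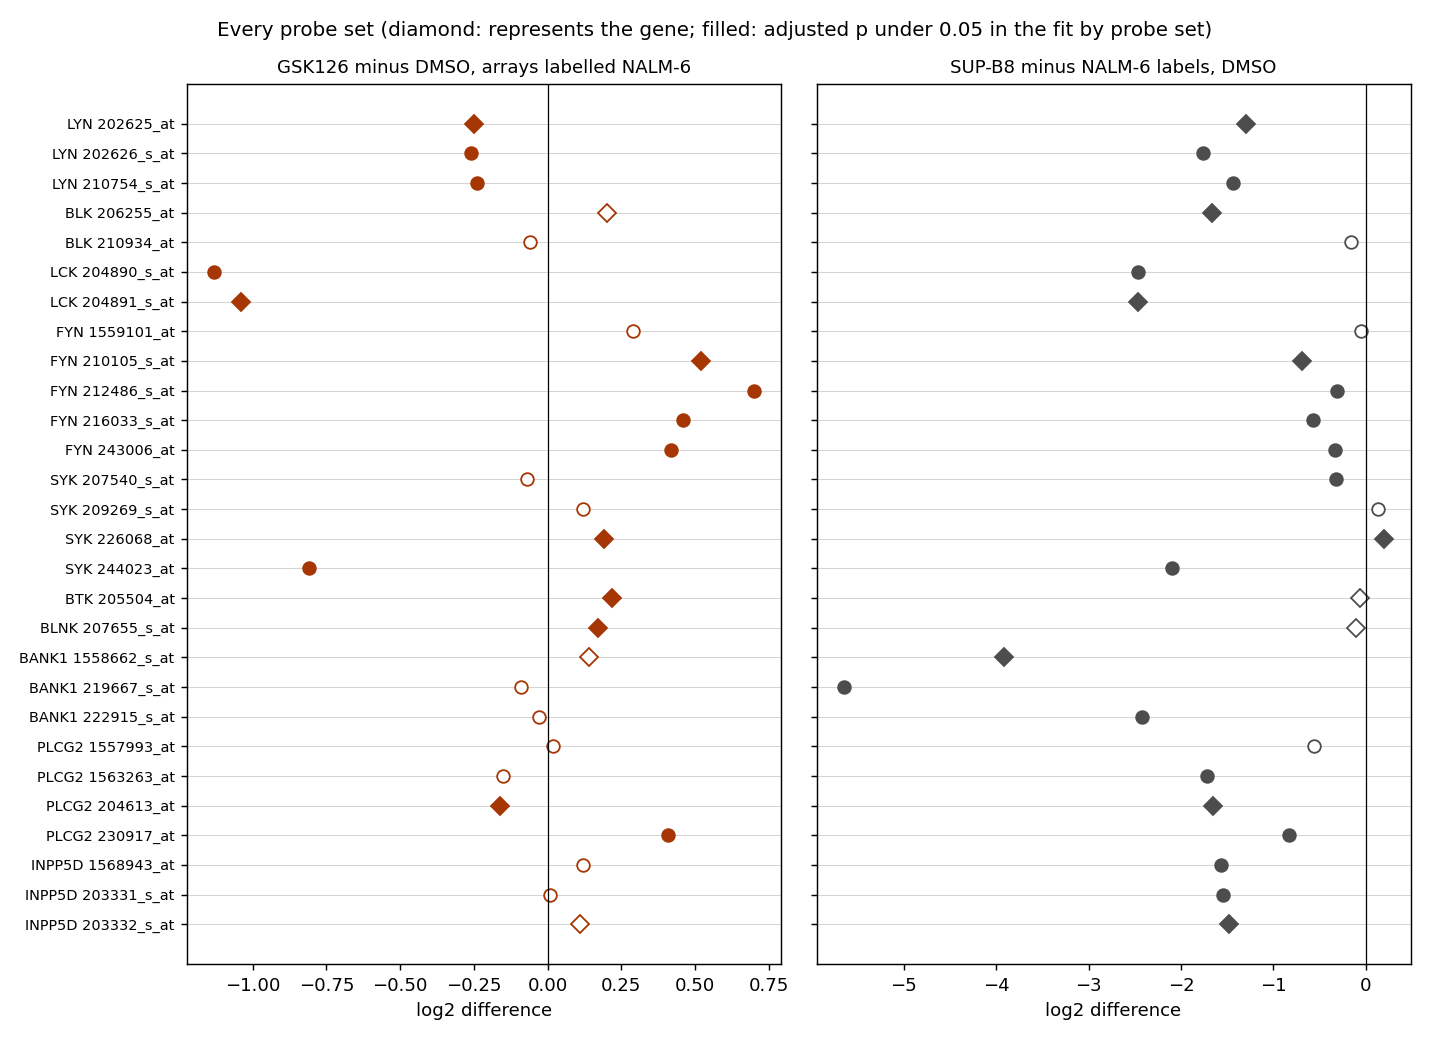
Log2 difference at each of the 28 probe sets for GSK126 minus DMSO in the arrays labelled NALM-6 (left) and for the lines under DMSO (right); diamonds represent the gene in the fit by gene and filled symbols had an adjusted p under 0.05 in the fit by probe set. Both LCK probe sets lie below -1 on the left, and SYK 244023_at (-0.81) and PLCG2 230917_at (0.41) stand on the other side of 0 from the probe set of their gene. Probe sets BLK 210934_at and PLCG2 1557993_at were not tested and are open, and the plotted size is no measured one where a line lies below the array medians, as for BANK1 on the right.

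The surrounding pathway was taken from 5 lists of 91 other genes, of which 77 were tested. These lists too were chosen with earlier results of these data known, so their shares are descriptions. Under DMSO 68 of the 77 were called, 17 with higher and 51 with lower levels in the arrays labelled SUP-B8, or 88.3% against 68.3% of all genes, and their median was -0.53. Of the 77, 11 passed the filter through the arrays of 1 label alone, which favours a difference between the lines, 8 of them called lower and 2 higher. The other 66 gave 15 higher and 43 lower, or 87.9%, against 66.2% of the genes measured under both labels. With GSK126 43 were called under the label NALM-6, 15 higher and 28 lower (median -0.12, against 0.02 over all genes), or 55.8% against 39.3% of all genes. The count under the label SUP-B8 was 5, 3 higher and 2 lower, or 2 and 0 with renewed quantile normalization and 4 and 1 with centred arrays. This was 6.49% of the 77, against 2.25% of all genes. Of the 2 lower, 1 lay below the array medians with both treatments and is not shown to be above background. The counts list by list below are to be read against the same shares of all genes, 39.3% under the label NALM-6 (20.8% higher and 18.5% lower), 2.25% under the label SUP-B8 and 68.3% between the lines (37.8% higher and 30.6% lower).

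Among the receptor and coreceptor chains, 4 of 5 tested were called with GSK126 under the label NALM-6, 2 in each direction, against 39.3% of all genes. CD79B, a signalling chain of the receptor, rose by 0.55 ± 0.05 (0.22 as the mean of its probe sets), and the complement receptor CR2 fell by 0.52 (SE 0.05). None (0 of 5) was called by limma under the label SUP-B8, where 3 had an unadjusted p under 0.05. Between the lines 4 were lower and 1 higher in the arrays labelled SUP-B8, against 68.3% of all genes called. CR2, lower by at least 1.23, passed the filter through 1 label alone, and the other 4 gave 3 lower and 1 higher. CD79A was at -0.95 ± 0.05. The immunoglobulin gene IGHM was at -0.70 ± 0.05, a direction that turned to 0.58 with the mean of its probe sets.

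Of the 6 other Src, Tec and Syk family kinases tested, 1 changed with GSK126 under the label NALM-6, against 39.3% of all genes. This was TEC, a relative of BTK, at -0.63 ± 0.11 (adjusted p = 0.00242). Between the lines 4 were lower and 2 higher in the arrays labelled SUP-B8, against 68.3% of all genes called, but 3 of the 6 passed the filter through 1 label alone. YES1 was higher by at least 1.46, FRK lower by at least 0.93, and ZAP70, the T-cell relative of SYK, was at -0.88 ± 0.05.

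Of 22 adaptors, exchange factors and PI3K subunits, 3 rose and 7 fell under the label NALM-6, against 39.3% of all genes called there. VAV3, an exchange factor, fell by 1.64 (SE 0.07, adjusted p = 3.27e-06), from 10.14 ± 0.10 to 8.50 ± 0.14 (SD, n = 2). SOS1, an exchange factor for RAS, rose by 0.64 ± 0.06, or 0.30 as the mean of its probe sets. Under the label SUP-B8 the kinase subunit PIK3CD was called at -0.25 ± 0.05 (adjusted p = 0.0399), a call lost in all 8 omissions of an array. Between the lines 13 were lower and 6 higher in the arrays labelled SUP-B8, against 68.3% of all genes called. Of the higher, 1 passed the filter through 1 label alone, and the other 21 genes gave 13 lower and 5 higher. DAPP1, a lipid-binding adaptor, was at -2.08 ± 0.30, and PIK3R1, the regulatory PI3K subunit, at 1.18 ± 0.06.

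The calcium, protein kinase C, RAS and NF-kB branch below PLCG2 held 21 tested genes, of which 5 rose and 8 fell under the label NALM-6, against 39.3% of all genes called. The calcium-regulated transcription factor NFATC1 fell by 1.42 (SE 0.06, adjusted p = 3.27e-06), and fell by 0.70 as the mean of its probe sets. The calcineurin subunit PPP3CA rose by 0.77 ± 0.05. PPP3CB, another subunit, rose by 0.68 ± 0.04, but its mean over probe sets was -0.23 and called (adjusted p = 0.00311). Under the label SUP-B8 2 rose and 1 fell. The gene that fell lay below the array medians with both treatments, so its fall is not a measured one. ITPR2, a calcium release channel, rose by 0.35 ± 0.05. That call was lost without any 1 of the arrays of that label and with the mean of its probe sets (0.21, adjusted p = 0.233). Between the lines 18 of 21 were lower in the arrays labelled SUP-B8 and 3 higher, with a median of -1.09, against 30.6% lower and 37.8% higher of all genes. Of these, 3 lower genes passed the filter through the arrays labelled NALM-6 alone, and the other 18 had a median of -0.82. RASGRP3 and RASGRP1, exchange factors for RAS, were lower by at least 4.92 and 2.55, and PRKCB, the main protein kinase C of B cells, by at least 3.72. These bounds are those of the representing probe sets. The mean of probe sets gave smaller differences for RASGRP3 (-3.79) and PRKCB (-2.61).

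Inhibitory receptors, phosphatases and other brakes numbered 23 tested, of which 5 rose and 10 fell under the label NALM-6, against 39.3% of all genes called. The adaptor SLA rose by 1.0 ± 0.07 (adjusted p = 2.1e-05). The inhibitory receptor LAIR1 fell by 0.89 (SE 0.08, adjusted p = 0.000105), with -0.48 as the mean of its probe sets, and PTPN6, which encodes the phosphatase SHP-1, fell by 0.61 (SE 0.05, adjusted p = 7.32e-05). Under the label SUP-B8 CBLB, a ubiquitin ligase, was the single gene called, at 0.46 ± 0.07 (adjusted p = 0.019), a call lost without DMSO replicate 2 or either GSK126 array of that label and with the mean of its probe sets (0.25, adjusted p = 0.0785). Between the lines 12 were lower and 5 higher in the arrays labelled SUP-B8, against 68.3% of all genes called. Of the 23, 3 passed the filter through 1 label alone, 2 of them called lower, PTPRC and SH3BP5. The other 20 gave 10 lower and 5 higher. PTPRC, which encodes CD45, the phosphatase that frees Src-family kinases from their inhibitory tail, was lower by at least 5.47. That bound is for its representing probe set, and the mean of its probe sets gave -4.58. SH3BP5, a binding partner of BTK, was lower by at least 4.37.

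**Figure D4:**
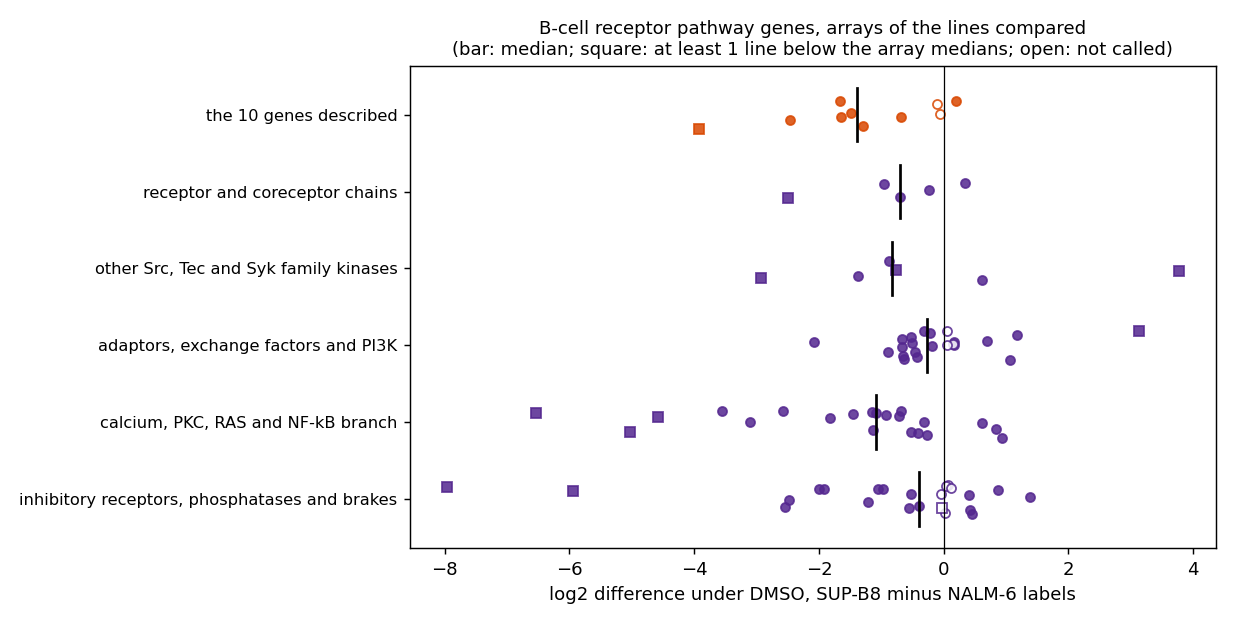
Log2 difference between the lines under DMSO (SUP-B8 minus NALM-6 by label) for the 10 genes and 5 lists of their pathway; each point is a gene, bars are medians, squares mark genes with at least 1 line below the array medians, whose plotted size is not a measured one, and open symbols were not called. The medians are -1.39 for the 10 genes and -1.09 for the calcium, protein kinase C, RAS and NF-kB branch.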

How the data were processed

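RNA from 8 cultures was measured on Affymetrix arrays, and the authors deposited a table of log2 values with a row per probe set. The submitters' processing notes name MAS5 and RMA; what each was used for, and its version, is not given in the sources used here. That the deposited values are log2 follows from their range. They were taken as already normalized and were used as they stand. Detection calls were not used, and precision is limited by the number of arrays.

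Of 54675 probe sets, 41097 had 1 gene symbol, 1801 several and 11777 none, and no symbol changed through the gene identifier. Each of 19775 genes was represented by its probe set of highest mean. The filter kept the 13161 genes above the array's own median on 2 or more of the 8 arrays. limma version 3.58.1 in R version 4.3.3 fitted 1 mean per group with 4 residual degrees of freedom. Python version 3.11.15 read the promoter table. A group with all arrays below their medians was not counted as above background, and only the distance of the other group from those medians is then given, as a bound.

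The procedure was also run on simulated data with 200 changed genes. Its outcome is not given here and is not used as evidence for the calls. The members, lists and designs were chosen with earlier results of these data known. Named are all 10 members, and from each list up to 4 called genes of largest size per comparison; not all of these are printed. Alternatives covered the filter, the choice and unit of probe set, renewed quantile normalization, centring, the variance prior, a fit of the compared arrays alone, a replicate block and the omission of each array. Same-numbered replicates did not deviate together: the correlations of their deviations were -0.03 (label SUP-B8), 0 (label NALM-6) and 0.08 (lines under DMSO), so the block is only an alternative.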

Additional observations from a re-analysis of the deposited data

Results flagged for a closer look

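The response to GSK126 differed between the labelled lines by limma's test of the difference itself (SUP-B8 minus NALM-6) for 5 of the 10 genes. Over all genes the share was 25.4%. The differences were 1.0 for LCK, -0.39 for BTK, -0.36 for SYK, -0.27 for INPP5D and -0.25 for FYN, each with an adjusted p under 0.05 in the fit by gene. With the mean of probe sets the calls of SYK (0, adjusted p = 0.974) and INPP5D (-0.19, adjusted p = 0.0975) were lost. FYN also lost its call in 7 of the 8 omissions of an array, and INPP5D in 4 of the 8. The representing probe set of FYN, 210105_s_at, was not called in the fit by probe set (adjusted p = 0.051). In the fit by probe set the same test was passed by 7 further probe sets that do not represent their gene, and 26.4% of all probe sets passed it. SYK probe set 244023_at (0.72) and PLCG2 probe set 230917_at (-0.60) differed in sign from the probe set that represents the gene. LYN probe set 202626_s_at gave 0.36, LCK probe set 204890_s_at 0.99 and FYN probe set 216033_s_at -0.28. The fitted values of BANK1 probe set 219667_s_at (0.94) and FYN probe set 212486_s_at (-0.50) are not measured sizes, since both levels under the label SUP-B8 lie below the array medians. The difference for BANK1 in the fit by gene was not called (adjusted p = 0.0584). With 2 arrays in each group, no group was large enough for a check of single outlying arrays.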

How the results depend on the processing

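The differences between the lines under DMSO kept their calls and direction for LYN, BLK, LCK, FYN, PLCG2 and INPP5D under all alternatives and omissions run. So did the responses of LCK, FYN and LYN under the label NALM-6. BANK1 passed the filter through the arrays labelled NALM-6 alone and had to differ between the lines, so its kept call is no check. SYK turned with the mean of its probe sets, to -0.14 for the response under the label NALM-6, -0.52 between the lines and 0.00 for the difference of responses. With that mean PLCG2 turned to 0.03 (label NALM-6) and -0.06 (difference of responses), BLK to 0.06 (difference of responses), LYN to 0.02 (label SUP-B8), IGHM to 0.58 between the lines, and PPP3CB to -0.23 (label NALM-6) and 0.18 (difference). Other turns were of uncalled values near 0: LYN under the label SUP-B8 with renewed quantile normalization (0.02) and with centring (0.00), and BLK for the difference of responses with centring (0.01). Omissions of an array moved uncalled values across 0 for BTK between the lines (-0.12 to 0.00), BLK (-0.13 to 0.06) and PLCG2 (-0.01 to 0.06) in the difference of responses, and LCK (-0.07 to 0.00) and LYN (-0.07 to 0.05) under the label SUP-B8.

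Of the 10 genes, 2 were called under the label SUP-B8; the count was 0 without a filter, 1 with the mean of probe sets, 1 by probe set, 1 with only the arrays compared, 1 with the replicate block, 5 (2 higher, 3 lower) with the trended robust prior, and 0 to 1 over the omissions. Under the label NALM-6 7 were called, and 3 to 8 over the omissions. For the difference of responses 5 were called, 3 without a filter and 3 to 5 over the omissions. Over all genes, 296 were called under the label SUP-B8, and 160 without a filter, 777 with the trended robust prior, 191 with only the arrays compared, and 27 to 217 over the omissions. Among the alternatives other than omissions, the members called under the label NALM-6 were 5 without a filter and 5 with centring. They were 6 with the mean of probe sets and 9 with renewed quantile normalization. For the difference of responses 7 were called with the trended robust prior. Tested by probe set, the calls over all features were 10213 (label NALM-6), 6571 (difference) and 17422 (lines), of 24848 tested. The replicate block ended the calls of FYN under the label SUP-B8 (adjusted p = 0.096) and in the difference of responses (0.0893), of BLNK (0.0638) and PLCG2 (0.0793) under the label NALM-6, and of INPP5D in the difference (0.0555). It gave calls to BLK under the label NALM-6 (0.0384) and to BANK1 in the difference (0.0393), and changed no other call of the 10 genes. The cause of these changes was not tested. Without detection calls, the array medians limit what can be said of BANK1 and of the dim probe sets of FYN and PLCG2.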
